A study of Mus musculus with 6 samples.

Results

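The genes described here are 10 members of the insulin-like growth factor (IGF) axis, out of 18476 genes in the deposited table: the ligands Igf1 and Igf2, the receptors Igf1r and Igf2r, and the binding proteins Igfbp2, Igfbp3, Igfbp4, Igfbp5, Igfbp6 and Igfbp7. They were taken by gene symbol, and the family was picked because Igfbp3 was already known to differ between the treatment groups of these libraries. Differences between groups in these 10 genes are therefore given as a description and support no claim. The libraries came from femoral arteries of wild-type C57BL/6 mice, 3 days after injury with a wire, and the arteries of both groups were injured. The vessel had been treated from its outer side with saline (3 libraries) or with vasostatin-2, a fragment of the granule protein chromogranin A (3 libraries). No uninjured artery is part of the comparison, so the change that injury itself brings cannot be read from these data. The dose of the peptide and the sex and age of the mice are not given in the sources used here.

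IGF-1 and IGF-2 are secreted growth factors that promote survival, migration and proliferation of vascular smooth muscle cells. Both signal through the IGF-1 receptor, a tyrosine kinase, whereas the IGF-2 receptor, which is also the cation-independent mannose 6-phosphate receptor, takes up IGF-2 and delivers it to lysosomes. Most circulating and matrix-bound IGF is held by binding proteins, which prolong its life or keep it from the receptor, and proteases release it again. IGFBP-3 is the main carrier in plasma and also acts on cells without IGF. IGFBP-7 binds IGF weakly and is a matrix protein of blood vessels.

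Total estimated counts lay between 19333730 and 20105995 per library, so depth hardly differed. The labels name vascular smooth muscle cells, but RNA was isolated from injured arteries, and markers of macrophages, fibroblasts and adipocytes were detected in every library beside those of contractile smooth muscle. The summed TPM (a level corrected for transcript length and library size) of 10 contractile smooth muscle markers was 842 to 1876 with saline and 894 to 2233 with vasostatin-2, and that of 10 macrophage markers was 11580 to 16230 and 14560 to 15280. No marker of these 2 lists was at 0 in any library. Red cell markers (8 of 9 had a row) summed to 43390 TPM in saline replicate 2 and to between 1149 and 9494 TPM elsewhere. Skeletal muscle markers summed to 1340 TPM in vasostatin-2 replicate 3 against 83.8 to 143 TPM elsewhere, and Schwann cell markers to 949 TPM in saline replicate 3 against 174 to 279 TPM elsewhere. In such bulk samples, fewer cells of a type and less RNA per cell cannot be told apart.

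Sequences upstream of a transcript start in 3 binding protein genes are shown because Igfbp3 and Igfbp2 were the members whose groups separated, in opposite directions, and because Igfbp5 is the neighbour of Igfbp2. Each is the 250 bases before a transcript start in RefSeq's promoter table (GRCm38.p6), 5′ to 3′ on the strand of the gene. Capitals mark the core of the hypoxia response element on either strand, searched as ACGTG and GCGTG. For Igfbp3 the window is chr11:7213924-7214173 (minus strand), for Igfbp2 chr1:72824230-72824479 (plus strand) and for Igfbp5 chr1:72874866-72875115 (minus strand). The Igfbp2 and Igfbp5 windows adjoin the annotated genes. The Igfbp3 window lies inside the annotated gene, since the transcript start it precedes, at 7213923, is 1575 bases downstream of the outer 5′ end of the gene at 7215498.
Igfbp3: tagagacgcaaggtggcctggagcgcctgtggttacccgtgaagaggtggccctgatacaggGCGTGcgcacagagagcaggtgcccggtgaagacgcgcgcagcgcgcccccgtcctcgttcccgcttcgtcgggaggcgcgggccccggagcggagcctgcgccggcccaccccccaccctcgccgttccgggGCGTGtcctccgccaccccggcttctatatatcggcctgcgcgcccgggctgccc
Igfbp2: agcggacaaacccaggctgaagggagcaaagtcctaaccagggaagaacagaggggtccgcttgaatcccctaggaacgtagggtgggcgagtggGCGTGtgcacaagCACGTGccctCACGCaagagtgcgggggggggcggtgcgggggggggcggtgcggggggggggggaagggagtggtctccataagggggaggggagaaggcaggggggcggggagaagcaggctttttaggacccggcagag
Igfbp5: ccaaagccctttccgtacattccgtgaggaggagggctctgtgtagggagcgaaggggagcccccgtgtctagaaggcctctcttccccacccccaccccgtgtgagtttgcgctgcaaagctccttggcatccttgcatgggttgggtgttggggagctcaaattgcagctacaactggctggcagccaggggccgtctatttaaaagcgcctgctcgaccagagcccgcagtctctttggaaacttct
The Igfbp3 window held 2 matches to the core, both GCGTG, the Igfbp2 window 4 matches and the Igfbp5 window 0. Of the 4 in Igfbp2, 2 are the same palindrome CACGTG, counted once on each strand. Among 32851 promoter windows of the same length, 38.6% held at least 1 match to either form. Of the 10 members, 7 had a match in at least 1 of their windows (all 10 had an entry, some with several starts, 14 windows in all). The first share counts windows and the second counts genes, so they cannot be compared directly. The Igfbp3 window also held TATATA, found in 5.25% of all windows and in no other member. The E-box CACGTG, which overlaps ACGTG, was in the windows of Igfbp2 and Igf2r and in 6.02% of all windows. These matches describe the letters of the windows. Binding was not measured.

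Transcript levels of the axis spanned more than 2 orders of magnitude, as shown in the plot of deposited TPM by gene. In the saline arteries Igfbp7 was highest at 1614 ± 219 TPM and Igfbp4 second at 732 ± 64.9 TPM (SD, n = 3 here and below). Igfbp5 (171 ± 72.7 TPM), Igfbp6 (124 ± 61.8 TPM), Igf1 (91.6 ± 10.4 TPM), Igfbp3 (87.8 ± 30.6 TPM) and Igf2r (51.5 ± 4.65 TPM) followed, and neighbours among these 5 overlapped. Igf2 was at 8.05 ± 1.16 TPM, Igf1r at 6.64 ± 0.0737 TPM and Igfbp2 at 2.30 ± 1.37 TPM, with no overlap between neighbours. With vasostatin-2 the order of the first 5 genes was the same, from Igfbp7 (1556 ± 43.8 TPM), Igfbp4 (772 ± 93.9 TPM), Igfbp5 (233 ± 105 TPM) and Igfbp6 (150 ± 24.0 TPM) to Igf1 (97.2 ± 10.9 TPM). Igf2r (48.2 ± 7.75 TPM) then stood above Igfbp3 (34.9 ± 1.45 TPM), with no overlap. Igf2 (10.5 ± 3.33 TPM), Igfbp2 (8.37 ± 4.38 TPM) and Igf1r (6.09 ± 0.390 TPM) came last, each overlapping the next.

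**Figure D1:**
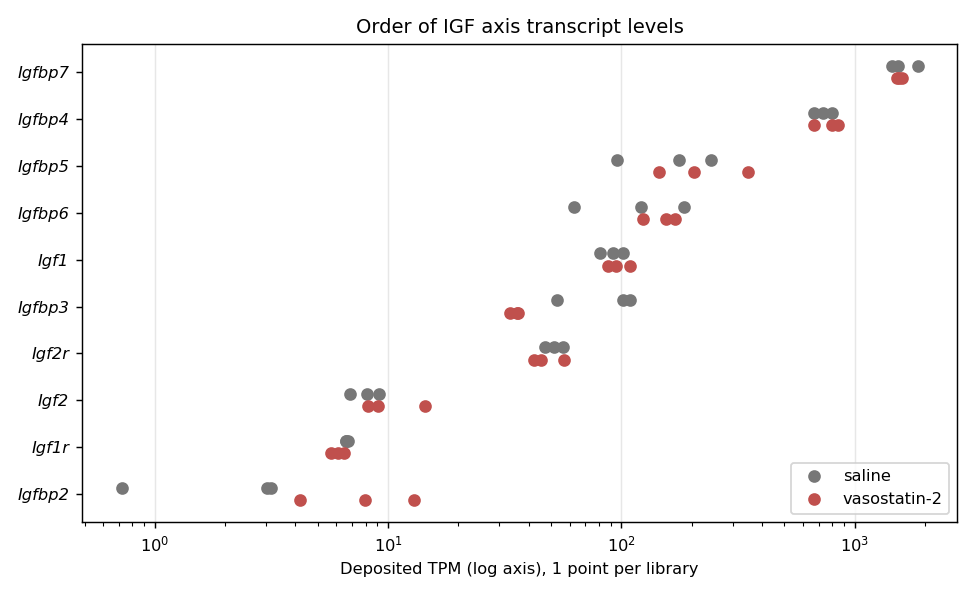
Deposited TPM of the 10 IGF axis genes on a log axis, 1 point per library, saline in grey and vasostatin-2 in red. Igfbp7 and Igfbp4 lie above all others, and only Igfbp3, Igfbp2 and, narrowly, Igf1r show no overlap between the groups on this scale.

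The injured artery held far more transcript for binding proteins than for ligands. The 6 binding proteins summed to 2732 ± 397 TPM with saline and 2754 ± 10.2 TPM with vasostatin-2, and the 2 ligands to 99.7 ± 11.1 and 108 ± 9.03 TPM. Igfbp7 made up 59.2 ± 3.09% of binding protein TPM with saline and 56.5 ± 1.49% with vasostatin-2. Igfbp3 made up 3.99%, 2.26% and 3.25% in saline replicates 1 to 3, against 1.302%, 1.29% and 1.21% with vasostatin-2. The groups thus separated in the share of Igfbp3, while the range of the sum with vasostatin-2 lay inside that with saline.

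Igfbp3, on chromosome 11 from 7206086 to 7215498 (GRCm38.p6, minus strand, gene 16009), was the member with the lowest fold change. Its levels in CPM (counts scaled to library size with TMM factors, used here for all comparisons between libraries) were 125, 65.9 and 118 in saline replicates 1 to 3. With vasostatin-2 they were 42.7, 42.3 and 39.5 CPM. Every vasostatin-2 library lay below every saline library, and the 3 treated values were close together while saline replicate 2 lay nearest to them. The means were 103 ± 32.3 and 41.5 ± 1.74 CPM, a log2 fold change of −1.31 (SE 0.23, 95% interval −1.86 to −0.76), or 2.48-fold lower with vasostatin-2. The estimated counts behind these values ran from 774 to 2477 per library.

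After Benjamini-Hochberg adjustment over all genes, the quasi-likelihood test of edgeR called 0 of 14557 (0%), with a lowest adjusted p of 0.198 for any gene and of 0.422 for Igfbp3. Without adjustment 1040 genes had a p under 0.05, which is 7.14% of those tested, and 2 of the 10 members, Igfbp3 and Igfbp2, were among them. DESeq2 called 113 of the 13973 genes it gave an adjusted p (0.809%), and Igfbp3 was the only member (adjusted p = 4.02e-05). The authors' deposited table gave a q-value under 0.05 to 98 of 18401 genes (0.533%), again with Igfbp3 as the only member (q = 5.23e-05, log2 fold change −1.31). Without saline replicate 2 edgeR called 2 of 14715 genes (0.0136%), 1 of them Igfbp3 (log2 fold change −1.55, SE 0.071, adjusted p = 0.0025). Leaving out any other single library gave log2 fold changes from −1.33 to −1.14 and adjusted p-values from 0.423 to 1.00. The fold change thus kept its direction throughout, while the call depended on the tool and on saline replicate 2. Nothing is read from these counts for Igfbp3, which was picked on this contrast.

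Several marker lists differed in their means in the same direction as Igfbp3, but not all. The median log2 fold change was above 0 for macrophage (0.22), fibroblast (0.19), adipocyte (0.14), contractile smooth muscle (0.36) and skeletal muscle (1.74) markers, none called. Only the T and NK cell list had sums that did not overlap between groups. The summed TPM of 9 T and NK cell markers was 52.5 to 80.3 with saline and 41.0 to 52.0 with vasostatin-2, a narrow separation, and the fold change was below 0 in 9 of 9 (median log2 fold change −0.43, none called). The 8 neutrophil markers tested also had fold changes below 0 (median −1.001, none called), with overlapping sums of 570 to 973 and 220 to 657 TPM, and Ly6g and Camp were at 0 in at least 1 library. Of 9 Schwann cell markers tested, 8 had fold changes below 0 (median −1.20, none called), with 949 TPM in saline replicate 3 as the one high sum. The 7 red cell markers tested had a median log2 fold change of −2.43 (none called), and saline replicate 2, richest in them, had the lowest Igfbp3 of its group. With the red cell level as a covariate the log2 fold change of Igfbp3 was −1.59 (edgeR adjusted p = 0.677). As the red cell markers had lower means with vasostatin-2, this covariate takes part of the group difference with it. Summed endothelial markers were 1237 to 1539 TPM with saline and 1283 to 1438 TPM with vasostatin-2, and summed fibroblast markers 12700 to 24440 and 16230 to 19860 TPM, both overlapping. The part of any of these cell types in the Igfbp3 difference was not tested, red cells, endothelial cells and fibroblasts included. Igfbp1, the next gene on the chromosome, 3539 bases away, is mainly a liver product. It was at 0 in 5 libraries and at 0.103 CPM in saline replicate 2, below the filter.

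**Figure D2:**
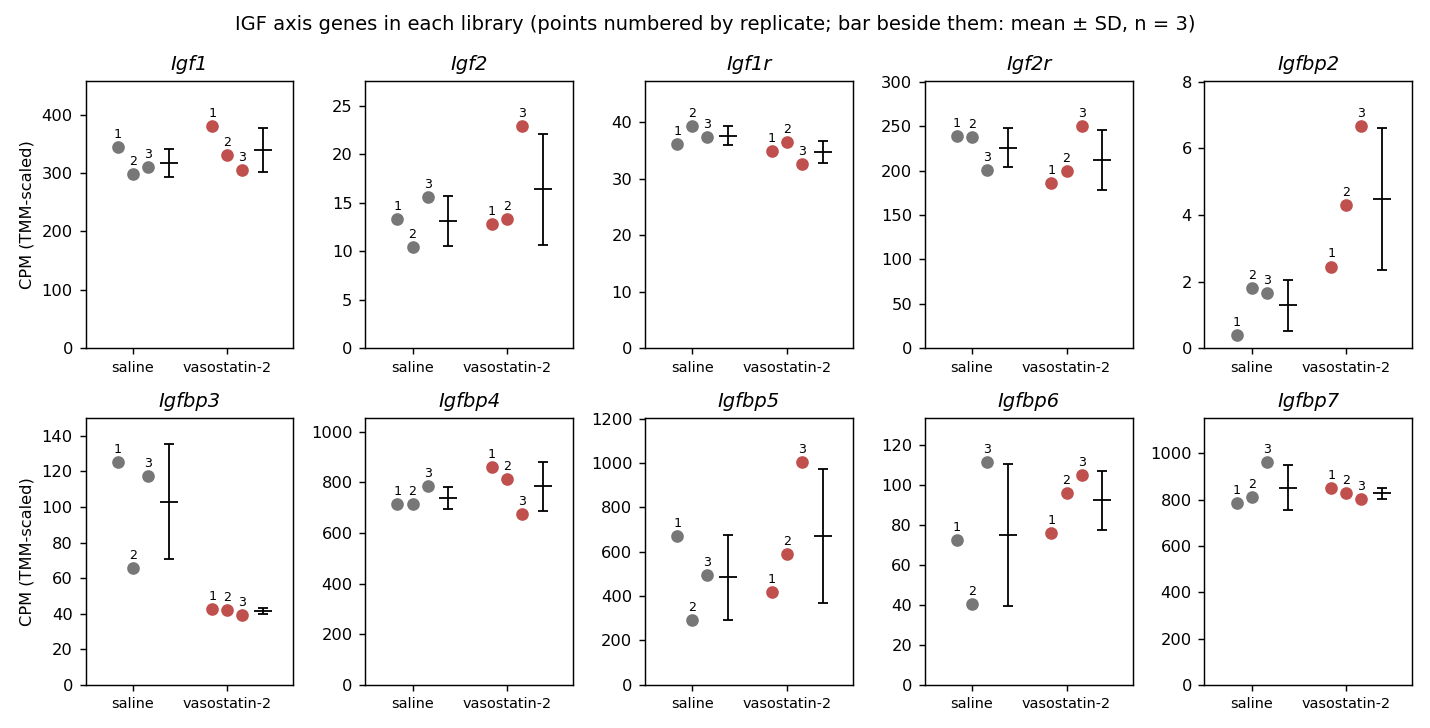
CPM of each IGF axis gene in the 6 libraries, with points numbered by replicate, the mean ± SD beside them and axes that start at 0. Igfbp3 is lower in all vasostatin-2 libraries (39.5 to 42.7 CPM) than in any saline library (65.9 to 125 CPM), Igfbp2 is higher without overlap, and the other 8 genes overlap.

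Igfbp2 (chromosome 1, 72824480 to 72852474), which can bind integrins through an RGD sequence, had the highest fold change of the members. It stood at 0.404, 1.81 and 1.64 CPM in saline replicates 1 to 3 and with vasostatin-2 at 2.45, 4.31 and 6.69 CPM in the same order. All treated libraries lay above all saline libraries, but the values rest on few counts, from 8 to 131 per library. The log2 fold change was 1.80 (SE 0.57, 95% interval 0.43 to 3.16), 3.48-fold higher, and between 1.37 and 2.12 when single libraries were left out. The highest value came from vasostatin-2 replicate 3, the library with high skeletal muscle markers, without which the log2 fold change was 1.39. No tool called it over all genes (DESeq2 adjusted p = 0.144, authors' deposited table q = 0.197). Separation of the groups was not rare: 883 of 14557 genes (6.07%) lay wholly higher with vasostatin-2, as 1 of 10 members did, and 978 (6.72%) wholly lower, as 1 of 10 members did.

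Igfbp5, which binds matrix and is made by smooth muscle and fibroblasts, lies 5590 bases from Igfbp2 in the opposite orientation, and its groups overlapped. Its levels were 671, 291 and 493 CPM with saline and 417, 592 and 1004 CPM with vasostatin-2. The lowest value was in saline replicate 2 and the highest in vasostatin-2 replicate 3, which alone lay above all saline libraries. The log2 fold change of 0.47 (SE 0.40, 95% interval −0.48 to 1.42) was 0.06 when vasostatin-2 replicate 3 was left out and to 0.20 when saline replicate 2 was. It came to 0.78 when saline replicate 1 was left out and to 0.72 when vasostatin-2 replicate 1 was. It was −0.50 with the red cell level as a covariate. Summed contractile smooth muscle markers were likewise lowest in saline replicate 2, at 842 TPM, and highest in vasostatin-2 replicate 3, at 2233 TPM. Of these markers 10 of 10 had a fold change above 0 (median 0.36, none called). Between these ends the orders differed: the sum was 1453 TPM in saline replicate 1 and 2165 TPM in vasostatin-2 replicate 2. Saline replicate 2 also had the lowest fibroblast sum (12700 TPM), and vasostatin-2 replicate 3 the highest skeletal muscle sum (1340 TPM). The part of smooth muscle, fibroblast or skeletal muscle content in the Igfbp5 values was not tested.

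Igfbp6, which prefers IGF-2 over IGF-1, showed a like spread. It was at 72.4, 40.5 and 111 CPM with saline and at 75.8, 95.9 and 105 CPM with vasostatin-2. Saline replicate 2 was again lowest, and the treated libraries lay inside the range of the saline ones. Its log2 fold change of 0.30 (SE 0.34, 95% interval −0.51 to 1.11) was 0.0052 when saline replicate 2 was left out, 0.71 when saline replicate 3 was and 0.20 when vasostatin-2 replicate 3 was. It was −0.27 with the red cell level as a covariate.

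The 2 most abundant binding proteins overlapped between groups, with fold changes close to 0. Igfbp4, a binding protein that inhibits IGF action until the protease PAPP-A cleaves it, was at 715, 714 and 788 CPM with saline and at 861, 815 and 677 CPM with vasostatin-2. Igfbp7 was at 785, 810 and 962 CPM with saline and at 851, 827 and 804 CPM with vasostatin-2. The treated libraries spread beyond the saline ones on both sides for Igfbp4 and lay inside their range for Igfbp7. The log2 fold changes were 0.09 for Igfbp4 (95% interval −0.19 to 0.36) and −0.04 for Igfbp7 (95% interval −0.30 to 0.21), the latter 0.055 without saline replicate 3. Neither interval reaches the size of the fold change of Igfbp3.

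Of the ligands, Igf1 was the more abundant, with 10.01 to 12.5 times the TPM of Igf2 in 5 libraries and 6.11 times in vasostatin-2 replicate 3. Igf1 is made by macrophages and mesenchymal cells of injured tissue. It was at 344, 298 and 311 CPM with saline and at 381, 331 and 306 CPM with vasostatin-2. The groups overlapped, with a log2 fold change of 0.10 (SE 0.11, 95% interval −0.16 to 0.35), which was 0.0049 without vasostatin-2 replicate 1. Igf2, an imprinted fetal growth factor, was at 13.3, 10.4 and 15.6 CPM with saline and at 12.8, 13.4 and 23.0 CPM with vasostatin-2. The 1 high library was vasostatin-2 replicate 3, where skeletal muscle markers were high, and without it the log2 fold change went from 0.32 (SE 0.26) to −0.0007. The part of skeletal muscle RNA in that value was not tested.

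Both receptors had fold changes slightly below 0. Igf1r, with a coefficient of variation of 4.31% with saline and 5.57% with vasostatin-2, was at 36.2, 39.4 and 37.3 CPM with saline and at 34.9, 36.4 and 32.6 CPM with vasostatin-2, a log2 fold change of −0.12 (SE 0.073, 95% interval −0.29 to 0.055). Its groups just overlapped in CPM, whereas on the TPM scale all treated libraries (5.71 to 6.49) lay just below the saline ones (6.58 to 6.72). Igf2r was at 239, 238 and 201 CPM with saline and at 186, 200 and 251 CPM with vasostatin-2. The groups overlapped, with a log2 fold change of −0.09 (SE 0.13, 95% interval −0.40 to 0.22) that was −0.23 when vasostatin-2 replicate 3 was left out and −0.0027 when vasostatin-2 replicate 1 was.

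The rows of both imprinted genes cover more than the gene. The deposited Igf2r row runs on chromosome 17 from 12682406 to 12830151, which is 60445 bases beyond the higher coordinate of Igf2r in RefSeq. Of its 6 transcripts, 5 come from the non-coding RNA database RNAcentral. The added stretch overlaps Airn (12741311 to 12859884), the antisense RNA that silences the paternal copy of Igf2r. The Igf2 row on chromosome 7 runs from 142650768 to 142670357, which is 3541 bases beyond the higher coordinate of RefSeq's gene. It lies over the antisense Igf2os, with 4 RNAcentral entries among 11 transcripts. Whether strand was used in counting is not given, so reads of these genes and their antisense partners cannot be told apart. The deposited rows of Igf2, Igf2r and Igfbp7 are labelled as plus strand, a label that was not checked against the strand of the genes. Rows of other members also overlapped annotated genes. Igfbp7 overlapped the protein-coding Polr2b and the non-coding Gm34648, Igf1 the non-coding Igf1os, and Igf1r the non-coding Gm51487 and Gm51488. The overlap with Polr2b lies at the edge of the Igfbp7 row, which starts at 77349240, while Polr2b ends at 77349328. The Igfbp4 row began 74 bases before RefSeq's gene. How reads in these overlaps were assigned is not given. For Igfbp3, 1 of 3 transcripts was an RNAcentral entry, and its row had the RefSeq span.

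The rest of the pathway was described with 64 genes in 8 lists, of which 61 had a row and 56 passed the low-count filter. Of these 56, edgeR called 0 higher and 0 lower after adjustment over all genes (0% of all genes were called), and DESeq2 called 0. At an unadjusted p of 0.05 there were 7 of 56, beside 7.14% of all genes. In 6 of 56 the vasostatin-2 libraries lay wholly higher, beside 6.07% of all genes. In 3 of 56 they lay wholly lower, beside 6.72% of all genes. In 23 the fold change was above 0 and in 33 below, with a median log2 fold change of −0.03, against −0.0007 over all genes tested. The plot of fold changes with intervals shows the members beside the named genes of these lists.

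Among proteins that complete or open the IGF complex, Igfals, the acid-labile subunit that joins IGFBP-3 and IGF in a ternary complex, was at 8.19, 8.83 and 8.72 CPM with saline and at 19.7, 14.2 and 10.3 CPM with vasostatin-2. All treated libraries were above the saline ones, with the largest distance in replicate 1, but the log2 fold change of 0.78 (SE 0.23) did not pass edgeR (adjusted p = 0.601) and was 0.51 without vasostatin-2 replicate 1. Igfbp1 and Igfbpl1 were below the filter. Of 7 proteases and inhibitors that act on binding proteins, 2 had positive and 5 negative fold changes, with a median log2 fold change of −0.21. The secreted protease Htra1 was at 116 ± 19.4 and 127 ± 20.4 CPM with saline and vasostatin-2. Adam12, a metalloprotease that can cleave IGFBP-3 and IGFBP-5, was at 295 ± 74.2 and 240 ± 40.6 CPM, with a log2 fold change of −0.30 that was −0.07 without saline replicate 1. Pappa, which encodes PAPP-A, was at 5.81 ± 1.51 and 4.53 ± 0.746 CPM, with a log2 fold change of −0.36 that was −0.13 without saline replicate 1. No member of this list separated the groups.

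Downstream of the receptors, 25 of 26 adaptors and kinases were tested, 11 with positive and 14 with negative fold changes and a median log2 fold change of −0.02. The groups did not overlap in 2 genes higher with vasostatin-2, Akt2 (log2 fold change 0.18) and Tsc2 (0.12). They also did not overlap in 3 lower genes, Gab1 (−0.25), Ptpn1 (−0.19) and Pik3ca (−0.14). None of these was called, and over all genes 6.07% lay wholly higher and 6.72% wholly lower with vasostatin-2. The kinase Akt1 was at 305 ± 22.3 CPM with saline and 298 ± 7.73 CPM with vasostatin-2, and the adaptor Grb10, which dampens receptor signalling, at 312 ± 68.6 and 327 ± 39.3 CPM. The insulin receptor Insr was at 77.2 ± 8.10 and 73.5 ± 3.13 CPM. The largest fold change of the list was that of Pik3r3, a regulatory subunit of PI3-kinase, at 29.2 ± 6.01 and 20.7 ± 4.55 CPM (log2 fold change −0.49, SE 0.20, edgeR adjusted p = 0.685, and −0.31 without saline replicate 1). Of 6 FoxO targets, which IGF signalling through AKT holds down, 3 had positive and 3 negative fold changes. Sesn1, a stress-induced inhibitor of mTORC1 and also a p53 target, was at 83.5, 100.1 and 74.5 CPM with saline and at 122, 119 and 113 CPM with vasostatin-2. Its groups did not overlap, and its log2 fold change of 0.46 (SE 0.11) did not pass edgeR (adjusted p = 0.528) or DESeq2 (adjusted p = 0.0634). Cited2, a transcriptional coregulator, was also separated, at 53.5 ± 9.25 and 63.8 ± 2.61 CPM (log2 fold change 0.25, SE 0.13, but 0.12 without saline replicate 3). Sesn1 and Cited2 were thus 2 of 6 targets wholly higher, beside 6.07% of all genes, and neither was called.

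**Figure D3:**
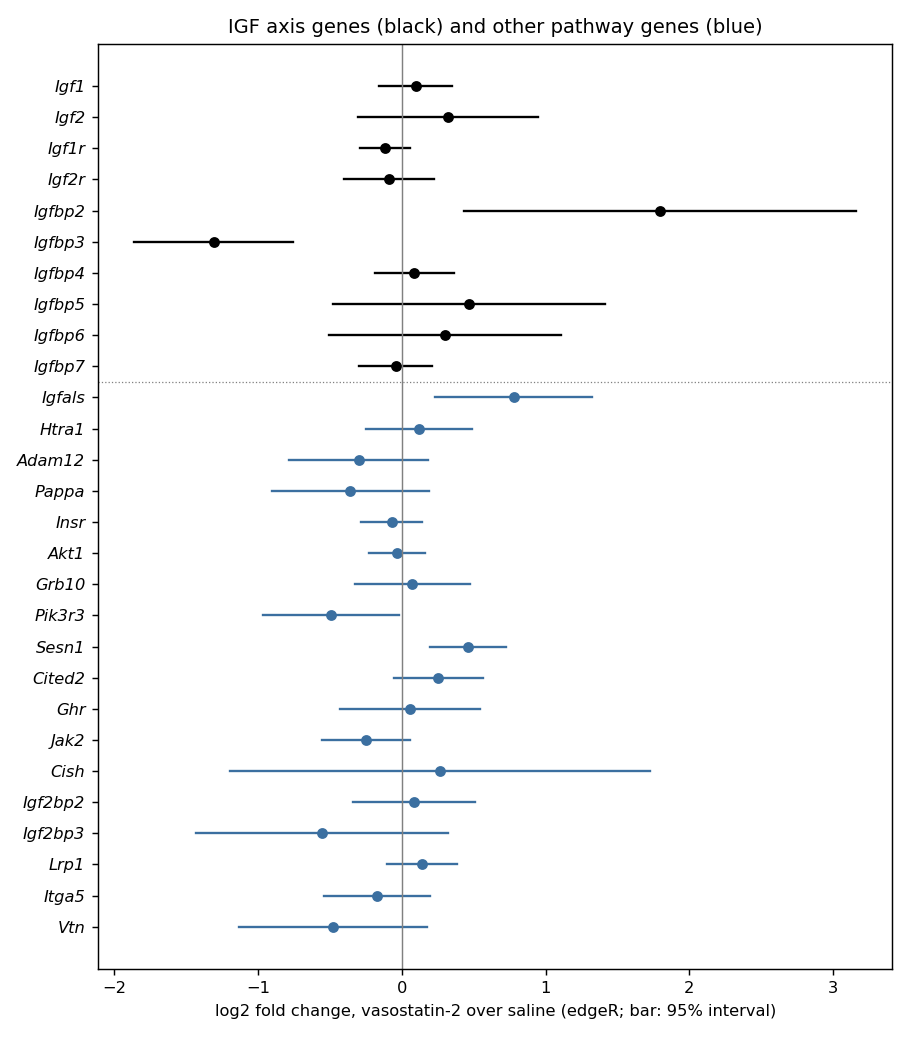
Log2 fold change of vasostatin-2 over saline with its 95% interval from edgeR, for the 10 members (black) and 18 other named pathway genes (blue). Igfbp3 (−1.31) and Igfbp2 (1.80) lie farthest from 0 among the members, and most pathway genes lie within 0.5 of it.

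Genes that feed the axis by growth hormone signalling or by Igf2 message overlapped between groups. The growth hormone receptor Ghr was at 301 ± 61.7 CPM with saline and 313 ± 70.2 CPM with vasostatin-2, its kinase Jak2 at 105 ± 16.4 and 88.1 ± 8.96 CPM, and the feedback inhibitor Cish at 13.98 ± 8.93 and 16.8 ± 11.4 CPM. Of that list of 6 genes, 2 had positive and 4 negative fold changes. Igf2bp2, an RNA-binding protein that carries Igf2 message, was at 28.6 ± 7.23 and 30.3 ± 2.46 CPM. Its relative Igf2bp3 was at 1.99 ± 0.740 and 1.35 ± 0.420 CPM. Among 8 surface or matrix partners of binding proteins, 3 had positive and 5 negative fold changes: the endocytic receptor Lrp1 was at 1430 ± 107 and 1576 ± 59.2 CPM, the integrin subunit Itga5 at 378 ± 60.6 and 336 ± 49.0 CPM, and vitronectin (Vtn) at 15.5 ± 5.65 and 11.1 ± 1.99 CPM. The log2 fold change of Vtn was −0.48, but −0.15 without saline replicate 3. Tmem219 was the 1 gene of this list of 8 whose groups did not overlap, higher with vasostatin-2 (log2 fold change 0.17, not called), beside 6.07% of all genes.

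The pattern of Igfbp3 over the 6 libraries was then set beside those of the other genes averaging 10 CPM or more (10455 with Igfbp3). Likeness was the root mean square difference of log2 CPM after each gene was centred on its own mean, so that a smaller value means a closer pattern. The 5 closest genes were Col11a1 (0.23), a fibrillar collagen chain, Npas2 (0.30), a circadian transcription factor, Dll4 (0.32), a Notch ligand of arterial endothelium, Rasl11b (0.33), a small GTPase, and Adamts4 (0.35), a protease of matrix proteoglycans. Col11a1 was at 15.5 ± 8.24 CPM with saline and 5.58 ± 0.291 CPM with vasostatin-2, and Dll4 at 27.8 ± 5.49 and 16.8 ± 0.561 CPM. Npas2 was at 17.2 ± 4.14 and 9.74 ± 0.118 CPM, Rasl11b at 20.99 ± 5.06 and 12.6 ± 1.88 CPM, and Adamts4 at 92.5 ± 15.1 and 56.9 ± 5.68 CPM. In each of these, as in Igfbp3, saline replicate 2 was the lowest saline library and the treated libraries lay below it. They were chosen for that likeness, so their separation is no further result. With genes down to 1 CPM admitted, only 1 of the 5 stayed among the closest 5. For Igf1, whose pattern is nearly flat, the closest genes were Nsun4, Ltbp3, Phf13, Camkk2 and Ska2, all with overlapping groups and log2 fold changes from 0.05 to 0.14.

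**Figure D4:**
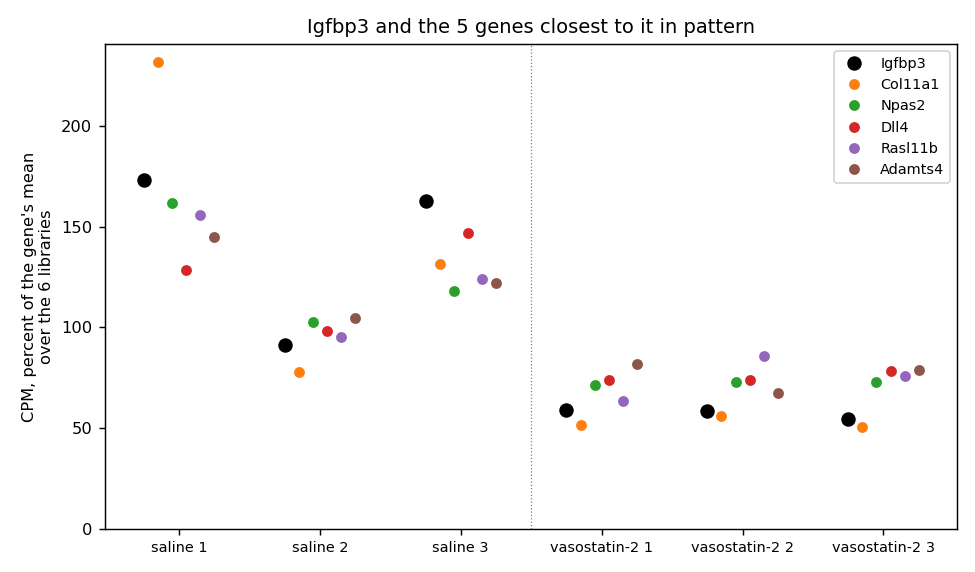
CPM of Igfbp3 (black) and the 5 genes closest to it in pattern, each as a percent of its own mean over the 6 libraries. In all 6 genes saline replicate 2 is the lowest of the saline libraries and the 3 vasostatin-2 libraries lie below it.

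The plot of fold changes under each alternative shows how far single libraries and settings moved the members. Igfbp3 stayed between −1.59 and −1.14 and Igfbp2 between 1.37 and 2.12, while Igf2, Igfbp5, Igfbp6 and Igfbp7 reached or passed 0 under at least 1 alternative.

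**Figure D5:**
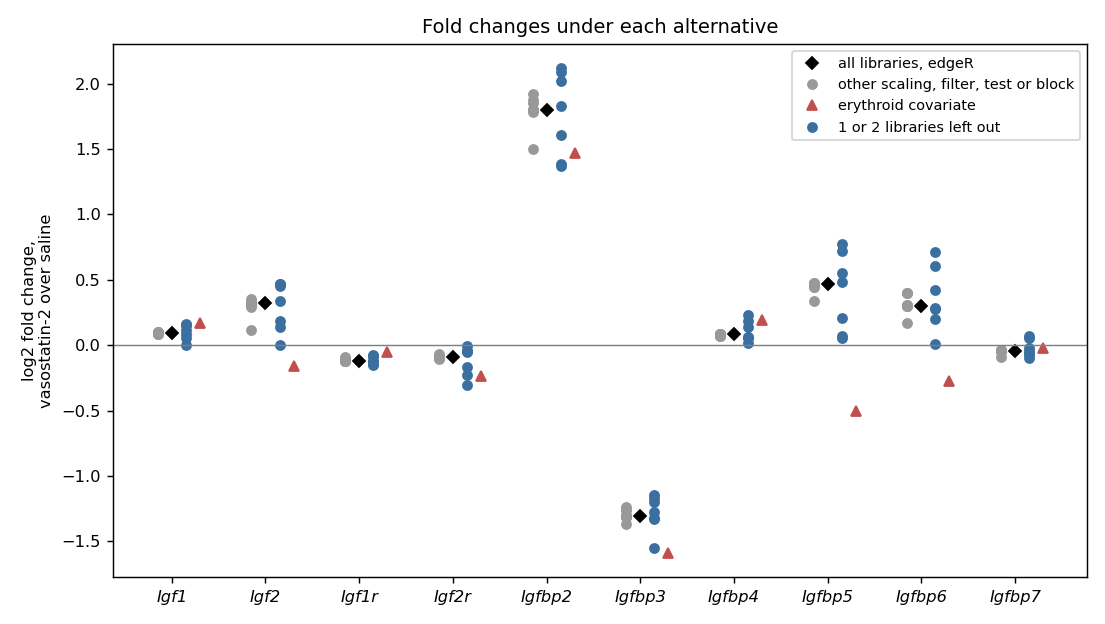
Log2 fold change of each member with all libraries (black diamonds), with 1 or 2 libraries left out (blue), with the red cell (erythroid) level as a covariate (red triangles) and with other scalings, filters, tests or the replicate block (grey). Only Igfbp3 and Igfbp2 stay farther than 1 from 0 throughout.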

How the data were processed

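The authors aligned reads with HISAT2 2.1.0 to GRCm38.p6 and compared groups with DESeq2 1.26.0, per the submitters' processing notes. The counting tool and strandedness are not given in the sources used here. The deposited table gives an estimated count per gene and library (65.6% whole) and TPM, per the file headers. The authors' own log2 fold changes and their deposited p-values and q-values are quoted only where that table is named, and 6 further columns of values per library (FPKM) were not used. Estimated counts were rounded, filtered with edgeR's filterByExpr (14557 of 18476 genes) and scaled by TMM (factors 0.985 to 1.01). edgeR 4.0.16 (R 4.3.3) was fitted with robust quasi-likelihood dispersions and treatment as the only term, with Benjamini-Hochberg adjustment over all genes and a threshold of 0.05. Standard errors are the fold change over the square root of the F statistic. DESeq2 1.42.0 and limma 3.58.1 were alternatives, and DESeq2 left 584 adjusted p-values undefined. log2 CPM used a prior count of 2. The edgeR, DESeq2 and limma-voom fits were also run on simulated counts with known changes, and the outcome is not given here. Libraries were made from oligo(dT)-enriched RNA and belong to 1 batch, per the labels. The submitters call them biological replicates, and in no pair within a group did the counts agree within sampling noise.

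The members and lists were chosen with earlier results of these data known. Named genes were the 10 members, from each pathway list the 2 with the highest mean TPM and, as none passed, the one with the largest fold change, and the 5 genes closest in pattern to Igfbp3 and to Igf1. Adipocyte marker sums overlapped (8048 to 16700 against 12460 to 17030 TPM). Promoter sequences come from RefSeq. Ins1, Ins2 and H19 were not analysed here, nor were protein sequences.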

Additional observations from a re-analysis of the deposited data

How the results depend on the processing

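edgeR called 0 genes under every alternative run with it except 2 without saline replicate 2. limma-voom and limma on log2(TPM + 1) or log2(TPM + 0.1) called 0, and DESeq2 113. The count of called members was 0 except 1, Igfbp3, with DESeq2 and without saline replicate 2, and its log2 fold changes there were −1.31 and −1.55. Over the leave-outs of single libraries the counts ranged from 0 to 2 genes and 0 to 1 member, and the fold change of Igfbp3 from −1.55 to −1.14. No pathway gene was called under any of the 18 alternatives. Of 180 member fold changes 6 changed sign. With the erythroid covariate Igf2 was −0.16, Igfbp5 −0.50 and Igfbp6 −0.27. Red cell markers had lower means with vasostatin-2, so the covariate takes part of the group difference with it. Igf2 was −0.0007 at its lowest and 0.47 at its highest over single leave-outs, and Igfbp7 −0.099 and 0.055. Igfbp7 was 0.0737 without both replicates 3.

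Of 324 fold changes of the 18 named pathway genes 15 changed sign. With the erythroid covariate Htra1 was −0.0070, Insr 0.040 and Grb10 −0.19, and with limma-voom Htra1 was −0.014. Without both replicates 3 Grb10 was −0.11 and Igf2bp2 −0.048. Single leave-outs ranged from −0.017 to 0.27 for Htra1, −0.091 to 0.010 for Akt1, −0.033 to 0.27 for Grb10 (also −0.032), −0.14 to 0.21 for Ghr (also −0.089), −0.38 to 0.93 for Cish (also −0.0013) and −0.052 to 0.31 for Igf2bp2.

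With replicate number as a block edgeR called 0 genes and Igfbp3 was at −1.26. The numbers did not pair the libraries: deviations from the group means correlated at −0.12, 0.025 and 0.027 for numbers 1, 2 and 3, and no library correlated best with its own number. Counts of Igfbp2 as low as 8 limit its precision.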

Other observations

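Which group had the larger spread between libraries differed from member to member. The coefficient of variation of CPM was larger with saline in 4 members, among them Igfbp3 (31.4% against 4.20%) and Igfbp7 (11.2% against 2.84%). It was larger with vasostatin-2 in 6, among them Igf1 (7.53% against 11.3%) and Igf2 (19.6% against 34.8%). The summed TPM of the 6 binding proteins lay between 2744 and 2764 in the 3 vasostatin-2 libraries and between 2336 and 3130 in the saline ones, although single binding proteins such as Igfbp5 differed more than 2-fold among the vasostatin-2 libraries. Saline libraries also differed more from each other over the genes at large. The squared count difference of a pair, relative to sampling noise, averaged 31.0 to 80.1 per gene with saline and 15.6 to 25.1 with vasostatin-2. The share of all genes with the larger spread in either group was not computed. With 3 libraries a group, these spreads were not tested.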
